A study of Homo sapiens with 6 samples.

Results

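The genes described here make and load the major histocompatibility complex (MHC) class I molecule. They are the heavy chains HLA-B, HLA-C, HLA-E, HLA-F and HLA-G, the light chain B2M, both subunits of the peptide transporter, TAP1 and TAP2, and NLRC5, a transcriptional activator of class I genes. These 9 genes, of 58395 in the table, were chosen by symbol with their levels in these libraries already known, so their levels are given as a description and no test on them is offered as support. The samples are polyadenylated RNA from M14 cells, a human line long kept in culture and derived from a melanoma. The cells were cultured without attachment so that they formed floating melanospheres, which were broken up by mechanical means, stained with an antibody against CD20 and separated by flow sorting. The study set 3 libraries of CD20-positive cells beside 3 libraries of CD20-negative cells, numbered 1 to 3 in each group. All 6 libraries come from this 1 line, and no other treatment or genotype is named. Nothing in the labels says that the replicates were separate cultures, so any p-value below sets a difference against a spread that may be only technical.

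Almost every nucleated cell displays peptides from its own proteins on class I molecules. The proteasome cuts proteins into peptides, TAP1 and TAP2 pump them into the endoplasmic reticulum, and chaperones such as tapasin (TAPBP), calreticulin (CALR) and PDIA3 help to load them onto a heavy chain paired with B2M. Interferons raise most of these genes, in part through NLRC5, and tumours including melanoma are known to lower them as a way to avoid cytotoxic T cells.

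Of the 9 genes, 7 lie on chromosome 6 in the MHC, and their positions here are those of GENCODE release 29 on GRCh38. HLA-F spans chr6:29722775-29738528 and HLA-G chr6:29826967-29831125, both on the plus strand. HLA-E spans chr6:30489467-30494205 on the plus strand. HLA-C spans chr6:31268749-31272130 and HLA-B chr6:31269491-31357188, both on the minus strand. TAP2 spans chr6:32821833-32838780 and TAP1 chr6:32845209-32853978, both on the minus strand. The other two are elsewhere: B2M spans chr15:44711487-44718877 and NLRC5 chr16:56989485-57083531, both on the plus strand.

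The heavy chain genes are close copies of one another, which bears on how sequenced fragments can be assigned to them. The first 90 bases of coding exon 4, which encodes the membrane-proximal domain that contacts B2M, are shown for the 5 heavy chains as the annotation's transcripts give them, with capitals where a base differs from HLA-B.
HLA-B (chr6:31355503-31355592, minus strand): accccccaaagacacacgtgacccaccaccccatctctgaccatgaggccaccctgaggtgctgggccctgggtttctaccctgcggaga
HLA-C (chr6:31270396-31270485, minus strand): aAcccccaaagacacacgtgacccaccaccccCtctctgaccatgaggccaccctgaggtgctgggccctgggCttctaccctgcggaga
HLA-E (chr6:30491137-30491226, plus strand): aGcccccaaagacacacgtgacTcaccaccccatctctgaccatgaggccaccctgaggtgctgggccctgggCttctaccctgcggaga
HLA-F (chr6:29725031-29725120, plus strand): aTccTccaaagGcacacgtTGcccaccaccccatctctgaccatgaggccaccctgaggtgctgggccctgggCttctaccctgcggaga
HLA-G (chr6:29829418-29829507, plus strand): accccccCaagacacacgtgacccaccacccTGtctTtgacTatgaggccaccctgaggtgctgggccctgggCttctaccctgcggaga
HLA-C and HLA-E each differ from HLA-B at 3 of these 90 bases, and HLA-F and HLA-G at 6. Over the whole exon of 276 bases, HLA-C was 93.5% identical to HLA-B, HLA-E 92.0%, and HLA-F and HLA-G 90.9% each. The longest run of identical bases was 41 for HLA-C and reached 52 for HLA-F, so short pieces of this exon are shared while longer ones are not. Over all annotated transcripts, between 99.3% (HLA-G) and 100% (HLA-B, HLA-F) of the 100-base windows of the 5 heavy chains occurred in no other gene.

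Levels are in FPKM, the number of fragments on a gene scaled to its length and to a size set for the library. In each library these values were whole multiples of what 1 fragment is worth, which gave back 15637802 to 17933097 fragments per library. The size that the values imply was 1.07, 1.07 and 1.10 times the recovered fragments in CD20-negative libraries 1, 2 and 3. In CD20-positive libraries 1, 2 and 3 it was 0.864, 1.02 and 0.971 times. The part of this scaling in any difference between the groups was not tested. MS4A1, the gene of CD20, had 0.225, 0.263 and 0.403 FPKM in CD20-negative libraries 1, 2 and 3 and 1.24, 0.966 and 1.28 FPKM in CD20-positive libraries 1, 2 and 3, so the groups did not overlap. Mitochondrial genes took 4.25% to 5.73% of the fragments of the CD20-negative libraries and 11.9% to 20.6% of those of the CD20-positive libraries. Their part in any difference between the groups was not tested. Of the melanocytic markers, SOX10, MLANA, TYR, DCT and TYRP1 were at most 0.262 FPKM in every library, MITF was at 1.72 to 2.34 FPKM and PMEL at 8.73 to 33.8 FPKM. In bulk RNA such as this, fewer cells expressing a gene and less of its RNA per cell cannot be told apart.

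Of the 9 genes, the 7 in the MHC were listed at or near 0 in nearly every library, while B2M and NLRC5 were measured in all 6. HLA-E, a non-classical heavy chain recognised by natural killer cells, was listed at 0 FPKM in all 6 libraries. HLA-G, a heavy chain known from the placenta, and TAP1 were likewise listed at 0 FPKM in all 6. HLA-F, another non-classical heavy chain, was listed at 0.0123, 0.0517 and 0.0116 FPKM in CD20-negative libraries 1, 2 and 3 and at 0.0610, 0.0718 and 0.102 FPKM in CD20-positive libraries 1, 2 and 3. The groups did not overlap. This was so for 15.0% of the genes tested, but HLA-F was too low to be among them, and no share was computed for such low genes. The HLA-F values are 1, 4 and 1 fragments beside 4, 5 and 7, and CD20-negative library 2 and CD20-positive library 1 had 4 each. TAP2, the partner of TAP1, had 3 fragments in CD20-negative library 1, 1 fragment in CD20-positive library 3 and none in the other four.

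**Figure D1:**
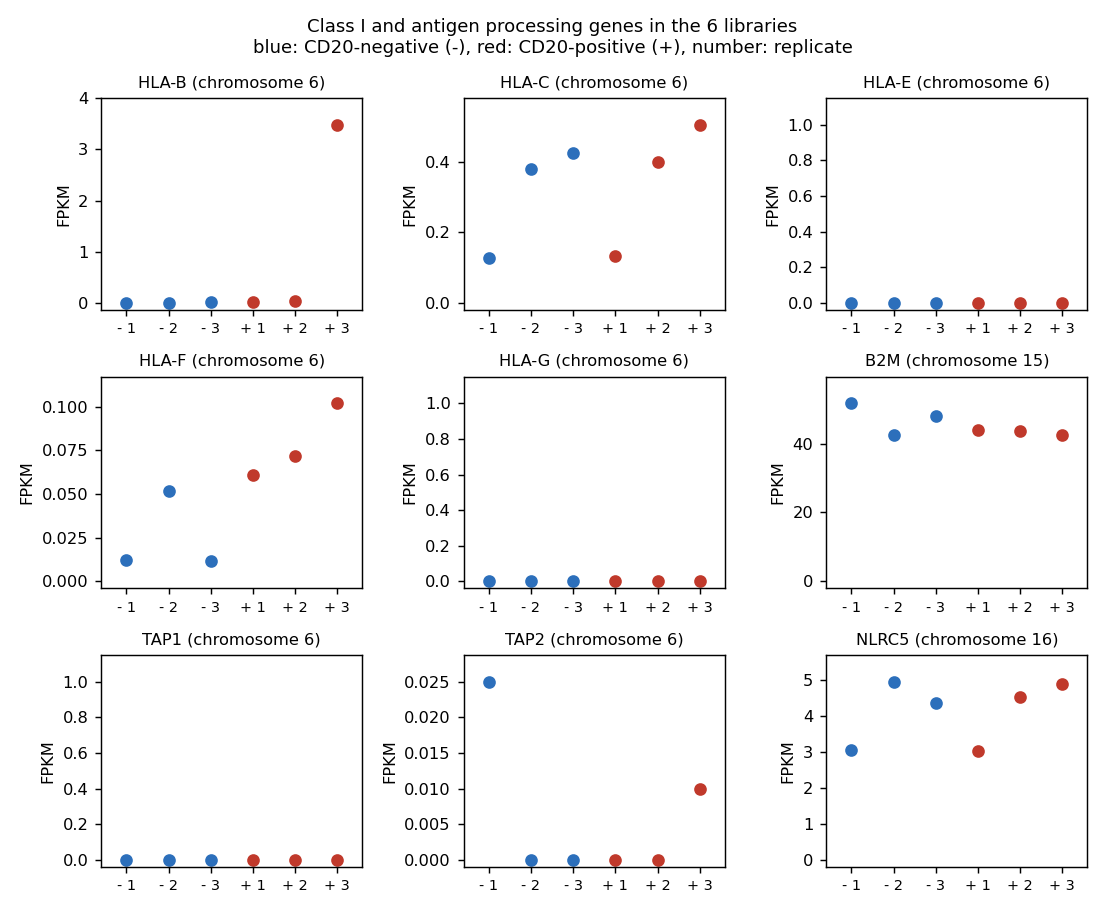
Level in FPKM (vertical axes, each with its own scale) of the 9 genes in the 3 CD20-negative libraries (blue) and the 3 CD20-positive libraries (red), 1 point per library. HLA-E, HLA-G and TAP1 are at 0 throughout, HLA-B stands out in CD20-positive library 3 at 3.48 FPKM, and HLA-C and NLRC5 are lowest in both libraries of replicate 1.

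HLA-C, a classical heavy chain, was listed at 0.127, 0.380 and 0.423 FPKM in CD20-negative libraries 1, 2 and 3 and at 0.132, 0.398 and 0.505 FPKM in CD20-positive libraries 1, 2 and 3. The groups overlapped, and both libraries of replicate 1 were the lowest, with 6 and 5 fragments against 16 to 21 in the other four.

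HLA-B, the other classical heavy chain in the list, differed in a single library. It was listed at 0, 0 and 0.0166 FPKM in CD20-negative libraries 1, 2 and 3 and at 0.0217, 0.0409 and 3.48 FPKM in CD20-positive libraries 1, 2 and 3. These are 0, 0 and 1 fragments beside 1, 2 and 168. The groups did not overlap, by a margin of single fragments apart from CD20-positive library 3. The share without overlap, 15.0%, is for genes tested, and HLA-B was too low to be among them. That library stood alone, and the difference between the groups rests on it: without it, no library had more than 2 HLA-B fragments. In the whole table HLA-B was the only gene with at least 100 fragments in 1 library and at least 10 times the FPKM of the next highest library, and the other 5 libraries had no such gene. These limits were set with the HLA-B values known, so this is a description and not support. The exons annotated to HLA-B overlap those of HLA-C and of an unnamed gene (ENSG00000271581) over 577 of 3051 bases, or 18.9%. HLA-C in that same library was at 0.505 FPKM, 20 fragments. A table of gene totals does not show where in HLA-B the 168 fragments lie.

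The low values were shared by the genes around the heavy chains and the transporter. From the start of HLA-F to the end of TAPBP (chr6:29722775-33314387, 3.592 Mb), 114 of 149 protein-coding genes, 76.5%, were listed at 0 in all 6 libraries. Only MICA and IER3, 1.34% of the genes, averaged 1 FPKM or more, and no gene averaged 10 FPKM. In the stretch of the same length before HLA-F, 30.1% of 93 protein-coding genes averaged 1 FPKM or more. In the stretch after TAPBP 50.0% of 58 did so, and over all 19892 protein-coding genes 53.8%. The low values did not begin and end at these limits: before HLA-F, all protein-coding genes from TRIM27 to ZFP57 were at 0 too. After TAPBP, DAXX, KIFC1 and PHF1 averaged 0.250, 0.0482 and 0.313 FPKM, while CUTA averaged 14.2 FPKM.

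**Figure D2:**
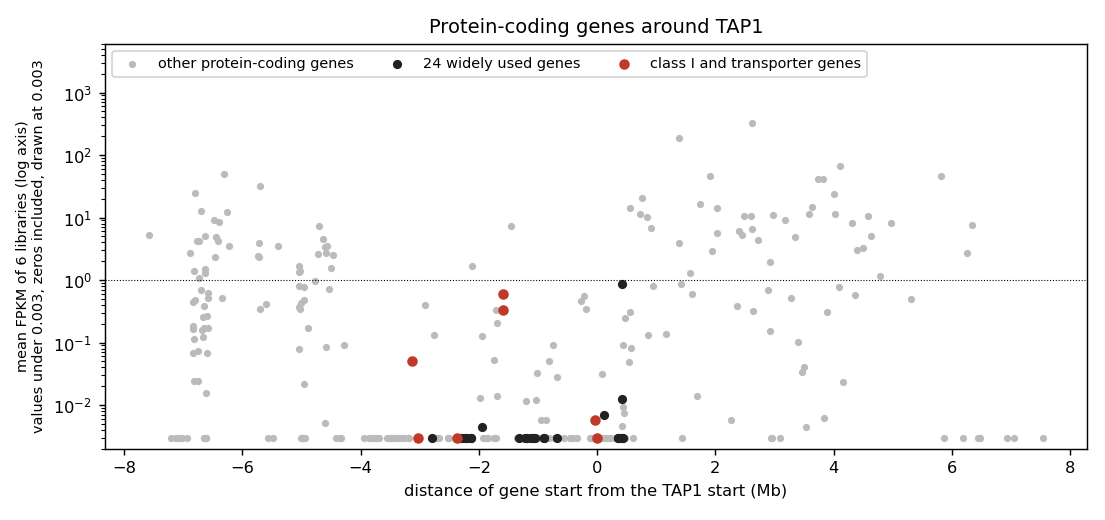
Mean FPKM over 6 libraries (log axis) of protein-coding genes within 8 Mb of the TAP1 start, by distance in Mb; values under 0.003, zeros included, are drawn at 0.003. The class I and transporter genes (red) and 24 widely used genes (black) all lie under the dotted line at 1 FPKM, as do nearly all other genes between HLA-F and TAPBP (grey).

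Genes that every cell uses were among those at 0. A set of 24 such genes between HLA-F and TAPBP, picked after the values were seen, included TUBB, a tubulin, VARS1, the valine tRNA ligase, and DDX39B, an RNA helicase of messenger RNA export. All 24 had means below 1 FPKM and 20 were listed at 0 in all 6 libraries. RPS18, a protein of the small ribosomal subunit, was the highest of them, at 1.88, 0.532 and 0.746 FPKM in CD20-negative libraries 1, 2 and 3 and 0.593, 0.263 and 1.10 FPKM in CD20-positive libraries 1, 2 and 3. Cytosolic ribosomal protein genes as a whole had a median of 184 FPKM, and 68 of 76 averaged 10 FPKM or more. The zeros of HLA-E, HLA-G and TAP1 are therefore reported as listed values only, and no fold, floor or loss of a single gene is read from them.

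Sequence shared between annotated genes was measured for these genes. Only GENCODE 29 transcripts were compared, so the measure cannot show copies of a gene that lie outside them. Every 100-base window of TAP1 and of VARS1 occurred in no other gene's transcripts, as did 99.5% of those of HLA-E, and all 3 were listed at 0 in all 6 libraries. For TAP2, 30.3% of windows were shared with an overlapping gene (ENSG00000250264), and for TUBB 3.80% with a pseudogene. Exon overlap, which can make a counter set fragments aside, covered none of HLA-E and VARS1 and 9.49% of TAP1. How the authors' alignment and counting treated fragments with more than 1 possible position is not given in the sources used here, and its part in the zeros was not tested. Of 352 windows of 1 Mb that hold at least 15 protein-coding genes, 16 had under 5% of them at a mean of 1 FPKM or more, and 4 of these 16 were the neighbouring windows of chromosome 6 from 29 to 33 Mb.

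Among the immunoproteasome, loading, pseudogene and class I-like genes inside the MHC, only MICA averaged 1 FPKM or more. PSMB8 and PSMB9, the interferon-inducible catalytic subunits of the immunoproteasome, were listed at 0 in all 6 libraries. TAPBP, which bridges the transporter and the heavy chain, was listed at 0.0421 to 0.122 FPKM. Of 9 class I pseudogenes, 8 were at 0 in all libraries. MICB, a stress ligand for natural killer cells, was at 0 in all 6. MICA, its close relative and the next protein-coding gene of the class I family after HLA-B, was the highest gene of the region. It was at 9.05, 3.93 and 7.16 FPKM in CD20-negative libraries 1, 2 and 3 and at 11.3, 8.65 and 3.95 FPKM in CD20-positive libraries 1, 2 and 3. The groups overlapped, and the library with 168 HLA-B fragments was among the 2 lowest for MICA.

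B2M, outside the MHC, was higher in every library than NLRC5, the other member that could be measured. It was at 51.7, 42.4 and 47.9 FPKM in CD20-negative libraries 1, 2 and 3 and at 43.9, 43.6 and 42.5 FPKM in CD20-positive libraries 1, 2 and 3, from 4024 to 5904 fragments. The groups overlapped: CD20-negative library 2 was the lowest of all 6 and the highest library was 1.22 times the lowest. The means were 47.4 ± 4.68 FPKM in CD20-negative cells and 43.3 ± 0.725 FPKM in CD20-positive cells (SD, n = 3 each). On the log2(FPKM + 1) scale the difference, CD20-positive minus CD20-negative, was -0.12 ± 0.14 (SE), smaller than its SE. Its adjusted p in the limma fit, 0.827, is given as a description, since the gene was chosen with its levels known.

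NLRC5 was measured at a lower level, at 3.05, 4.94 and 4.35 FPKM in CD20-negative libraries 1, 2 and 3 and at 3.01, 4.53 and 4.89 FPKM in CD20-positive libraries 1, 2 and 3. As with HLA-C, both libraries of replicate 1 lay below the other four, with a mean of 3.03 against 4.68 FPKM. The CD20 groups overlapped almost fully. Their means were 4.11 ± 0.965 and 4.14 ± 0.994 FPKM (SD, n = 3 each), and the log2 difference was 0.01 ± 0.21 (SE; limma adjusted p = 0.996). Among all genes, 20.8% of the 13155 tested had both replicate 1 libraries below the other four, so the placing of NLRC5 was a common one.

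Only B2M and NLRC5 reached a mean of 1 FPKM, so only these 2 of the 9 genes entered the fit across genes. Neither was called in either form of the fit, which is stated as a description and not as support. The limma fit without a term for the replicate number called 0.0076% of the 13155 genes tested, which is 1 gene. When the replicate number was added to the fit as a block, limma called 5.83%. In that fit the limma adjusted p of B2M was 0.704 and that of NLRC5 0.985.

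Genes with profiles most like those of NLRC5 and B2M were looked for on all chromosomes, and no share by chromosome was computed. Among 4502 other genes that averaged 10 FPKM or more, the log2 profile of NLRC5 over the 6 libraries was closest to that of ESRP2, an epithelial splicing factor on chromosome 16 (Pearson r = 0.995), then LHFPL6 (0.991) and the antisense transcript CCR5AS (0.989). ESRP2 was at no more than 14.3 FPKM in the 2 libraries of replicate 1 and at 20.7 to 22.9 FPKM in the other four. For B2M the closest were MIX23 (0.996), BLOC1S6 on chromosome 15 (0.988) and CBX3 (0.980). MIX23 was highest in CD20-negative library 1 at 16.2 FPKM and lowest in CD20-positive library 3 at 8.77 FPKM. Of the 4502 genes, 163 had an r of at least 0.9 with NLRC5 and 43 with B2M. With only 6 points, these correlations are given as a description.

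The rest of the pathway was followed through lists of loading factors, proteasome subunits, transcription factors, interferon signalling, interferon-induced genes, class I-like genes, pseudogenes and class II genes. Of their 102 genes, 25 lie between HLA-F and TAPBP, and 61 of the 102 reached a mean of 1 FPKM. In the limma fit without a block none of these 61 was called, 4 had an unadjusted p under 0.05 (9.2% of all genes tested did), and their median log2 difference was 0.02 beside 0.00 for all genes tested. With the replicate block, STAT2 was called higher in CD20-positive cells and POMP, PSMB6 and ULBP3 lower, against backgrounds of 3.19% called higher and 2.64% called lower. The groups did not overlap for 11 of the 61 genes, or 18.0%, against 15.0% of all genes tested.

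**Figure D3:**
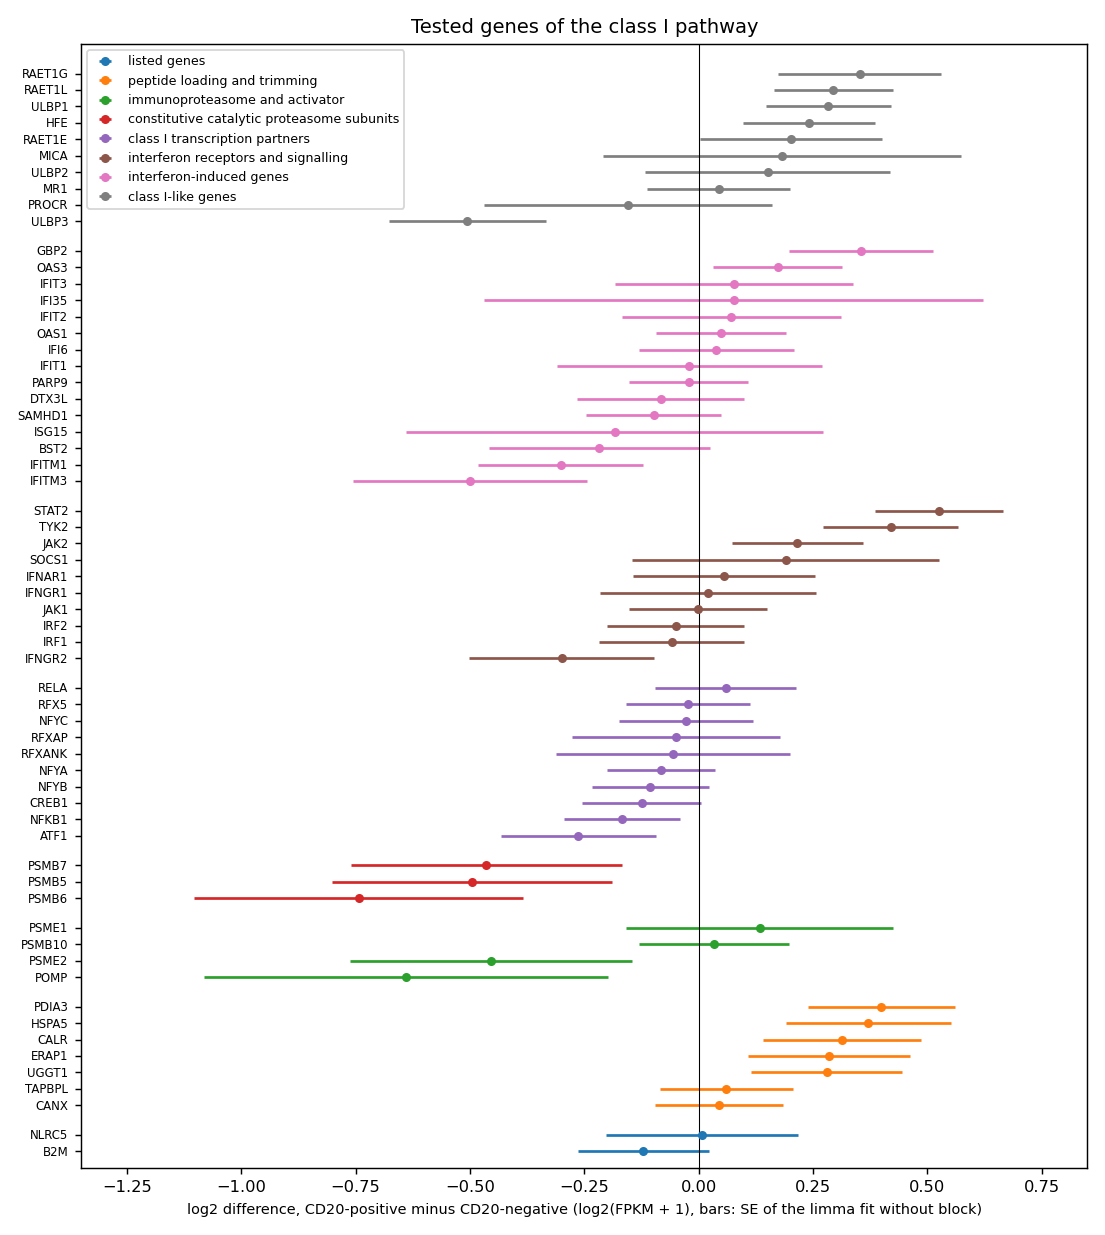
Log2 difference, CD20-positive minus CD20-negative, on the log2(FPKM + 1) scale (horizontal axis) for B2M, NLRC5 and tested genes of 7 pathway lists (colours); bars are the SE of the limma fit without block. B2M and NLRC5 lie near 0 at -0.12 and 0.01, and STAT2 (0.53) and PSMB6 (-0.74) are the farthest out on either side.

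Among loading and trimming factors, 7 of 9 genes were tested and none was called in either fit. PDIA3, the oxidoreductase of the loading complex, was at 97.1, 89.9 and 85.4 FPKM in CD20-negative libraries 1, 2 and 3 and at 107, 126 and 128 FPKM in CD20-positive libraries 1, 2 and 3, with no overlap. Its log2 difference was 0.40 ± 0.16 (limma adjusted p = 0.520). CALR ran from 251 to 285 FPKM in CD20-negative and from 323 to 345 FPKM in CD20-positive libraries, again without overlap, and its log2 difference of 0.31 ± 0.17 did not pass the test (limma adjusted p = 0.632). HSPA5, a general chaperone of the endoplasmic reticulum, had a log2 difference of 0.37 (limma adjusted p = 0.591). With each library scaled to the same FPKM total, PDIA3, CALR and HSPA5 turned to -0.11, -0.20 and -0.14. ERAP1, which trims peptides to the length class I binds, was lowest in both replicate 1 libraries, and its log2 difference was 0.29 ± 0.18 (limma adjusted p = 0.662).

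The proteasome genes had the lowest median of the tested lists with more than 1 gene. PSMB6, a catalytic subunit of the standard proteasome, was at 102, 76.5 and 65.2 FPKM in CD20-negative libraries 1, 2 and 3 and at 80.6, 42.8 and 30.7 FPKM in CD20-positive libraries 1, 2 and 3. The groups overlapped, but in each of the 3 same-numbered pairs the CD20-positive library was the lower one. Its log2 difference was -0.74 ± 0.36 without the block (limma adjusted p = 0.590) and -0.74 ± 0.18 with it (limma adjusted p = 0.031). With the block, the PSMB6 call ended without the trend and robust options (limma adjusted p = 0.051). It held at a filter of 10 FPKM (limma adjusted p = 0.00038) and with voom on the recovered fragments (limma adjusted p = 7.2e-05). PSMB5 and PSMB7, the other catalytic subunits, were lower in all 3 pairs too, at -0.50 and -0.46, and passed neither fit. With the block, both were called at a filter of 10 FPKM (limma adjusted p = 0.032 and 0.039) and with voom (0.013 and 0.023). Neither was called with the block without the trend and robust options (limma adjusted p = 0.147 and 0.106). POMP, which assembles new proteasomes, was at 105, 47.4 and 49.3 FPKM in CD20-negative libraries 1, 2 and 3 and at 72.2, 30.5 and 28.5 FPKM in CD20-positive libraries 1, 2 and 3. Its log2 difference of -0.64 had a limma adjusted p of 0.690 without the block and 0.031 with it. Of the subunits of the PA28 activator, PSME1 was at 0.13, and at -0.13 without CD20-negative library 3, and PSME2 was at -0.45, neither called.

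Of 11 transcription factors known to act on MHC promoters, 10 were tested and none was called in either fit, and the median log2 difference was -0.07. RFX5, the DNA-binding subunit of the RFX complex, was between 27.7 and 32.1 FPKM in all 6 libraries. CIITA, the class II counterpart of NLRC5, was at most 0.110 FPKM.

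Of the interferon pathway, STAT2 was the gene farthest from 0. It was at 10.2, 12.3 and 10.9 FPKM in CD20-negative libraries 1, 2 and 3 and at 14.6, 17.1 and 17.6 FPKM in CD20-positive libraries 1, 2 and 3, with no overlap. Its log2 difference was 0.53 ± 0.14 (limma adjusted p = 0.349), and the limma adjusted p with the block was 0.041. With the block, the call ended without the trend and robust options (limma adjusted p = 0.070). It held at a filter of 10 FPKM (limma adjusted p = 0.0054) and with voom (limma adjusted p = 0.0075). With each library scaled to the same FPKM total, the STAT2 difference shrank to 0.046 (limma adjusted p = 0.884). TYK2, a kinase of the type I interferon receptor, differed by 0.42 ± 0.15 and passed neither fit (limma adjusted p = 0.484, and 0.115 with the block). With the block, it was called at a filter of 10 FPKM (limma adjusted p = 0.032) and with voom (0.047). It was not called with the block without the trend and robust options (limma adjusted p = 0.156). Scaled to the same FPKM total, TYK2 was at -0.07. IRF1, the interferon-induced factor that can switch on class I genes, was between 1.09 and 1.57 FPKM. IRF9, the DNA-binding partner of STAT2, was listed at 0 to 0.105 FPKM.

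Several interferon-induced genes stood apart by replicate number. ISG15, a ubiquitin-like modifier, was at 78.2, 43.0 and 41.4 FPKM in CD20-negative libraries 1, 2 and 3 and at 92.0, 31.8 and 32.1 FPKM in CD20-positive libraries 1, 2 and 3. IFI35 was at 31.0, 15.1 and 13.6 FPKM in CD20-negative libraries 1, 2 and 3 and at 47.2, 12.9 and 12.2 FPKM in CD20-positive libraries 1, 2 and 3. For both genes the replicate 1 libraries were above the other four in either group, the opposite placing to that of NLRC5 and HLA-C. Of 15 interferon-induced genes tested, 8 had both replicate 1 libraries above the other four and 2 had both below, and 7 of the 11 tested genes of interferon signalling had both above. Over the 61 pathway genes both were above for 26, or 42.6%, where the background over all genes tested was 23.5%. Both were below for 9.8% of the pathway genes, where that background was 20.8%.

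The size of the replicate difference was set beside that of the CD20 difference for each gene. The median absolute log2 difference between replicate 1 and the other replicates was 0.25 over the 61 pathway genes, and that between the CD20 groups 0.15. Over all 13155 genes these medians were 0.28 and 0.17, so the pathway genes were close to the table as a whole. The replicate difference was the larger one for 41 of the 61 genes, 67.2%, and for 65.8% of all genes tested. What the replicate numbers stand for is not stated in the labels.

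**Figure D4:**
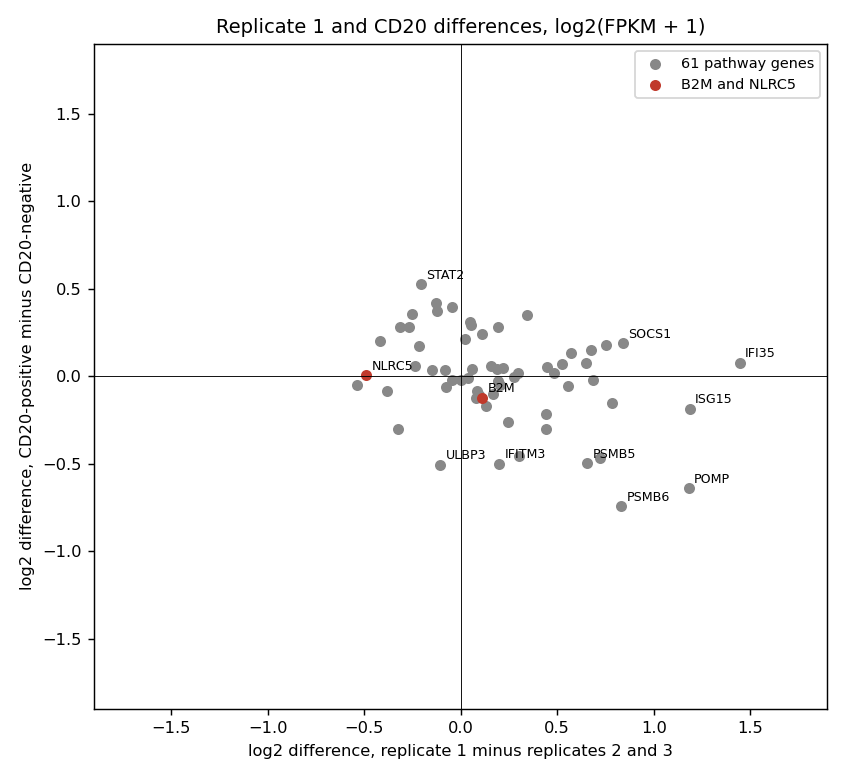
Log2 difference of replicate 1 from replicates 2 and 3 (horizontal axis) against the log2 difference between CD20-positive and CD20-negative cells (vertical axis), both on the log2(FPKM + 1) scale and on the same range, for 61 pathway genes (grey) and B2M and NLRC5 (red). The points spread farther along the horizontal axis, where IFI35, ISG15 and POMP lie to the right and NLRC5 to the left.

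Of 12 class I-like genes outside the MHC, 9 were tested. ULBP3, a ligand of the natural killer receptor NKG2D, was at 7.05, 8.06 and 6.75 FPKM in CD20-negative libraries 1, 2 and 3 and at 4.42, 6.25 and 4.03 FPKM in CD20-positive libraries 1, 2 and 3, with no overlap. Its log2 difference was -0.51 ± 0.17 (limma adjusted p = 0.467, and 0.047 with the block). With the block, that call ended without limma's trend and robust options (limma adjusted p = 0.084) and with voom (limma adjusted p = 0.083). ULBP1 and RAET1L, of the same ligand family, lay on the other side: neither overlapped between the groups, and their log2 differences were 0.28 and 0.29 without passing either fit, turning to -0.08 and -0.03 when scaled to the same FPKM total. ULBP2 was higher in both replicate 1 libraries, at 22.5 and 25.6 FPKM against 13.8 to 15.9 FPKM.

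Markers of other cells that a CD20 sort could carry along were low. The 7 B lineage markers reported here summed to 1.02 to 1.23 FPKM in the CD20-negative libraries and to 1.72 to 3.42 FPKM in the CD20-positive libraries, MS4A1 included. BANK1 was at 0 in all 6, PAX5 was at most 0.0570 FPKM and CD79A at most 0.135 FPKM. CD79B reached 1.05 FPKM, 33 fragments, in CD20-positive library 1 and lay between 0.0912 and 0.539 FPKM in the others. CD22 was at 0.967 FPKM in CD20-positive library 1, at 0.700 FPKM in CD20-negative library 1 and at most 0.267 FPKM in the others. The 7 markers of other leukocytes summed to 0.611 to 1.65 FPKM and 0.766 to 2.13 FPKM, most of it NKG7, with CD3D, CD3E and TYROBP at 0 in all 6 libraries and PTPRC at most 0.0116 FPKM. HLA-DRA, the class II chain abundant in B cells, lies in the MHC and was listed at 0 in all 6, so it gives no check.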

How the data were processed

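The deposited table held FPKM values that the authors made per gene, and its header names no unit: that these are FPKM was taken from the values. The submitters' processing notes name GRCh38 (hg38), the aligner HISAT2, the counter featureCounts 1.5.0 and DESeq2, without the settings. Multiplying FPKM by GENCODE 29 exon length gave whole fragments, within 0.02, for 98.2% to 98.7% of low values. Gene identifiers matched GENCODE 29 for 58275 of 58395 genes.

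The genes and lists were chosen with earlier results of these data known. Genes averaging 1 FPKM or more were tested on log2(FPKM + 1) with limma 3.58.1 (R 4.3.3; trend and robust options) and Benjamini-Hochberg adjustment, threshold 0.05, without a block; the script was tested on simulated data. Named pathway genes are the up to 3 with the smallest p in each list, with further genes named after their values were seen; some genes are not reported here. Deviations of same-numbered libraries correlated at 0.67, 0.24 and 0.51, so the replicate block was fitted too, although CD20-negative library 2 correlated more with CD20-positive library 3 (0.43).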

Additional observations from a re-analysis of the deposited data

How the results depend on the processing

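Without a block limma called 1 gene and no pathway gene. The count was 0 with no filter on low values and 0 with voom on the recovered fragments, 2 with a pseudocount of 10 FPKM and 9 after quantile normalisation. Leaving out 1 library gave 0 to 322: 322 without CD20-positive library 1, 1 without CD20-positive library 2 and 0 without any of the other four. With the replicate block it was 767 (420 higher, 347 lower), with 4 pathway genes; with the block, 450 and 1 without trend and robust options, 954 and 6 at a filter of 10 FPKM, and 1570 and 7 with voom. Without replicate 1 in both groups it was 1813, with 8 pathway genes. The block, voom and replicate 1 alternatives other than the plain block were chosen after seeing the data. Scaling each library to the same FPKM total moved the median log2 difference of all genes to -0.41 and gave 1383 genes (28 higher, 1355 lower), 7 of them in the pathway; it also raised the ratio of highest to lowest library to 2.10 for B2M and 2.84 for NLRC5. The mitochondrial share enters that total. The cause of the other changes was not tested. For 30 named genes, 546 log2 differences were computed under alternatives, and 38 of them were called although none is called at the reported settings without a block. The sign changed in 27, none of them called. Scaled to the same FPKM total, the log2 difference was -0.40 for NLRC5, -0.11 for PDIA3, -0.14 for HSPA5, -0.20 for CALR, -0.37 for PSME1, -0.069 for TYK2, -0.068 for JAK2, -0.034 for RAET1L, -0.078 for ULBP1, -0.077 for NKG7, -0.0075 for NECTIN2, -0.21 for CD276 and -0.36 for PVR. NLRC5, at 0.01, was -0.0089 scaled by a trimmed mean, -0.0040 with voom and -0.0041 with voom and the block. CTSS was 0.0043 after quantile normalisation and 0.072 without replicate 1 in both groups. Leaving out 1 library gave -0.15 to 0.18 for NLRC5, -0.13 to 0.41 for PSME1, -0.093 to 0.046 for CTSS, -0.018 to 0.41 for NKG7 and -0.12 to 0.0050 for MITF. HLA-B, HLA-C, HLA-F and TAP2 rest on few fragments in most libraries, which limits what can be compared for them, and no alternative gives values to genes listed at 0.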

Other observations

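Of the class II genes of the MHC, 4 were above 0 in some library, and their patterns differed. HLA-DQA1, a class II alpha chain, was listed at 1.57, 0.0486 and 0.0438 FPKM in CD20-negative libraries 1, 2 and 3 and at 1.56, 0.0900 and 0 FPKM in CD20-positive libraries 1, 2 and 3. These are 205 and 163 fragments in the replicate 1 libraries and at most 10 in the other four. HLA-DQB1, its beta chain partner, had 58 and 63 fragments in the replicate 1 libraries and 8 to 19 in the other four. HLA-DRB1 had 2 to 14 fragments and followed neither the replicate number nor the sort. HLA-DMB had 8, 4 and 3 fragments in CD20-negative libraries 1, 2 and 3 and 1, 0 and 0 in CD20-positive libraries 1, 2 and 3. Of the 13 class II genes in the list, 7 were at 0 in all 6 libraries. Just outside the class I to TAPBP interval, CUTA, 102 kb after TAPBP, was at 1.99, 1.85 and 22.8 FPKM in CD20-negative libraries 1, 2 and 3 and at 27.6, 6.88 and 24.3 FPKM in CD20-positive libraries 1, 2 and 3, a spread that follows neither the sort nor the replicate number.

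Ligands that tumour cells show to T cells and natural killer cells were measured outside the MHC. CD274, the checkpoint ligand PD-L1, was at most 0.117 FPKM. CD276, another checkpoint ligand, was at 37.3 to 41.7 FPKM in CD20-negative and 45.2 to 50.4 FPKM in CD20-positive libraries, and its log2 difference of 0.29 did not pass (limma adjusted p = 0.575). NECTIN2, a ligand of natural killer receptors, was at 28.6, 24.2 and 19.6 FPKM in CD20-negative libraries 1, 2 and 3 and at 43.1, 28.9 and 31.5 FPKM in CD20-positive libraries 1, 2 and 3; its limma adjusted p was 0.546 without the block and 0.072 with it. PMEL, a melanosome protein, differed by 0.75 on the log2 scale (limma adjusted p = 0.613, and 0.012 with the block).

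Low values of widely used genes were not limited to the MHC. RPS9, a ribosomal protein gene on chromosome 19, was listed at 0 in all 6 libraries, and NSF, a membrane fusion ATPase on chromosome 17, had 1 to 10 fragments. NSF was at 0.0896 to 0.106 FPKM in CD20-negative and 0.0126 to 0.0397 FPKM in CD20-positive libraries, so the groups did not overlap. This was so for 15.0% of the genes tested, and NSF was too low to be among them.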
